A study of Homo sapiens with 19 samples.

Results

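The zinc finger genes of chromosome 19 were taken as the 249 protein-coding genes of that chromosome whose GENCODE release 44 name begins with ZNF, among 20033 protein-coding genes on hg38. The rule uses name and position and no measured value. For each gene the length under peaks, in base pairs (bp), was measured within 10 kb of the transcription start site (TSS), within 2 kb of it, and over the gene body. They were set beside the 1227 other protein-coding genes of the chromosome and the 267 ZNF genes of other chromosomes. Of the 249 genes, 3 carry readthrough names that join neighbouring genes, and 69 have a 10 kb window that overlaps the window of another, so the genes are not independent measurements.

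The data were CUT&RUN peak lists of MOLM-13, a human acute myeloid leukaemia cell line with an MLL fusion gene. CUT&RUN cuts out the chromatin bound by an antibody with a tethered nuclease. Antibodies were against H3K27ac, found at active promoters and enhancers, against H3K4me2, a substrate of the demethylase LSD1, and against H3K4me3, which lies mainly at active promoters. Each mark had 2 libraries of cells given Corin, a bifunctional inhibitor of the CoREST complex that acts on both LSD1 and its deacetylases, and 2 of cells given the vehicle DMSO, which makes 6 groups and 12 libraries. Treatment lasted 24 h at 0.1 µM. The labels print that dose for the DMSO libraries too. All groups were the same line in the same medium, and the labels name no genetic change and no second drug for them. Another 7 libraries of the series, 4 of cells given ATRA and Corin, 1 with an LSD1 antibody and 2 with IgG, were not analysed here, and the values carry no correction for antibody background. The labels do not say whether libraries of a group came from separate cultures, so p-values measure only the spread between these libraries.

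Most of these genes encode KRAB zinc finger proteins, the largest family of human transcription factors. Their finger arrays bind DNA, often within transposable elements, and the KRAB domain recruits TRIM28, which brings the H3K9 methyltransferase SETDB1 and heterochromatin proteins of the HP1 family to the bound site. The family grew by tandem duplication, which left the genes in clusters, and the clusters are themselves known to carry H3K9 methylation over the exons that encode the fingers. The coding sequence of the canonical transcript, translated from hg38, gave a median of 12 finger patterns per protein and at most 39. A letter pattern of the KRAB A box matched 159 of the 249 proteins. That pattern is strict, and a protein among the 90 without a match may still carry the domain.

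The lists held 17599 to 34424 peaks for H3K27ac, 30896 to 41152 for H3K4me2 and 11104 to 11883 for H3K4me3, each range over 4 libraries. Scores are the authors' own and served only to order and filter peaks inside 1 list. Read depth is unknown beyond a minimum stated in the labels, so no detection floor was computed. Of 10 myeloid leukaemia markers, among them SPI1, MPO and FLT3, 10 had H3K4me2, 8 had H3K4me3 and 7 had H3K27ac within 2 kb of the TSS in all 4 libraries. None of the 15 markers of B cells, T cells, erythroid cells, hepatocytes and epithelium had H3K4me3 or H3K27ac there in all 4 libraries, and 4 of the 15 (EBF1, PAX5, TCF7 and APOA1) had H3K4me2.

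Promoter sequences were available from RefSeq (GRCh38.p14, 250 bases before to 50 after the start) for 218 of the 249 genes. The following 6 are shown because the results turn on them: ZNF93 had no peak of any mark, ZNF430 lies in the same cluster and had all 3 marks, ZNF675 had H3K4me3 without H3K4me2, ZNF426, from another cluster, had no peak either, and ZNF526 and ZNF784 had the lowest adjusted p after Corin for H3K27ac and H3K4me2. Each is written 5′ to 3′ on the gene's strand with the CG dinucleotides in capitals. They lie at chr19:19900696-19900995 (plus strand) for ZNF93, chr19:21020407-21020706 (plus) for ZNF430, chr19:23687163-23687462 (minus) for ZNF675, chr19:9538596-9538895 (minus) for ZNF426, chr19:42220062-42220361 (plus) for ZNF526 and chr19:55624517-55624816 (minus) for ZNF784.
ZNF93 promoter: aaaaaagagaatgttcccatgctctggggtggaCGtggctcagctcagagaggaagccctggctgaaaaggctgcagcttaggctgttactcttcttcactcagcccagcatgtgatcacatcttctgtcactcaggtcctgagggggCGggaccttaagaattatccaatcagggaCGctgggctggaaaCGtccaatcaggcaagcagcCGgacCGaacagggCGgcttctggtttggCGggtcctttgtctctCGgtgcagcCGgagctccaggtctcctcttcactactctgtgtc
ZNF430 promoter: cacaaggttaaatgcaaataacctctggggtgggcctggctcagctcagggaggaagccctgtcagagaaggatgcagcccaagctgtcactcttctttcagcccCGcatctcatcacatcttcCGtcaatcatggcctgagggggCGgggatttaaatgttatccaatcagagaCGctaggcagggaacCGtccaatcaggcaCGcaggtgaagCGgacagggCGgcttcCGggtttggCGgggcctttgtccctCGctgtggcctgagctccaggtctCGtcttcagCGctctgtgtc
ZNF675 promoter: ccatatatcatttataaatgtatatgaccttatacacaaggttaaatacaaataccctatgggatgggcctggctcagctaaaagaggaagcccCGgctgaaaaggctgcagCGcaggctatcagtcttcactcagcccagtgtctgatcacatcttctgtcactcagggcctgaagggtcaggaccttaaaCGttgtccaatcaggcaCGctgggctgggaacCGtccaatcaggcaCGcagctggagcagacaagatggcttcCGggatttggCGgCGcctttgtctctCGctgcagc
ZNF426 promoter: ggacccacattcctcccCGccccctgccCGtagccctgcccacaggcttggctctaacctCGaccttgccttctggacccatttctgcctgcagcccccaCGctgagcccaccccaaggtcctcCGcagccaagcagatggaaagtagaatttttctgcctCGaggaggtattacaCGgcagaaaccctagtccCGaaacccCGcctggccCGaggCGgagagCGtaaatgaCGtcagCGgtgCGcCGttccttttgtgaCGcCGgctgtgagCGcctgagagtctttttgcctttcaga
ZNF526 promoter: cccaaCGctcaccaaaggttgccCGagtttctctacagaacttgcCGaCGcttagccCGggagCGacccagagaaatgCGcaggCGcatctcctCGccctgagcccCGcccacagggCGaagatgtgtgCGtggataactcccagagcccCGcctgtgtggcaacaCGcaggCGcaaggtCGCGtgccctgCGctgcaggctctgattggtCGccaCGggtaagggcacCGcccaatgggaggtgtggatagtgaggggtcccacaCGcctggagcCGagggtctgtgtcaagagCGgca
ZNF784 promoter: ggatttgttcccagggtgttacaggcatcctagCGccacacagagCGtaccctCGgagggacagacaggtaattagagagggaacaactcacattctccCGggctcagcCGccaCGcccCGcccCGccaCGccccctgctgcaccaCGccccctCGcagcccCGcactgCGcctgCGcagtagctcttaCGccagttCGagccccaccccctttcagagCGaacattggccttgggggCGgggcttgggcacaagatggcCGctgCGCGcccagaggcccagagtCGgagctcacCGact

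ZNF93, ZNF430 and ZNF675 all lie in the gene cluster called cluster 4 below. The longest unbroken run shared by 2 promoters was 24 bases for ZNF93 and ZNF675, 25 for ZNF430 and ZNF675 and 14 for ZNF93 and ZNF430. For ZNF426, ZNF526 and ZNF784, with each other or with these 3, it was 7 to 10 bases. The promoters held 10 CG in ZNF93, 13 in ZNF430, 10 in ZNF675, 19 in ZNF426, 24 in ZNF526 and 23 in ZNF784.

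Fewer than 50% of the zinc finger promoters had any of the marks in all 4 libraries. An H3K4me3 peak lay within 2 kb of the TSS in all 4 libraries for 107 genes (43.0%), in some libraries for 22 (8.84%) and in none for 120 (48.2%). Over all protein-coding genes the share with H3K4me3 in all 4 libraries was 46.9% and in some 3.98%. It was 50.2% in the other genes of chromosome 19 and 68.5% in ZNF genes elsewhere. H3K4me2 was present in all 4 libraries at 100 of the 249 promoters (40.2%, against 58.3% of all genes), in some at 24 (9.64%, against 4.61%) and absent from all 4 at 125. H3K27ac was present in all 4 at 36 (14.5%, against 26.1% of all genes), in some at 48 (19.3%, against 19%) and absent at 165. No peak of any mark in any of the 12 libraries was found at 114 zinc finger promoters (45.8%, against 36.5% of all genes), and all 3 marks were present in all 12 libraries at 33 (13.3%, against 25%). The start site that GENCODE gives for the gene lies over 2 kb from that of the canonical transcript in 42 of the 249, and with the canonical start H3K4me3 was present in all 4 libraries at 117 and absent at 110.

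H3K27ac and H3K4me2 were counted next at the promoters that had H3K4me3. Among the 107 with H3K4me3 in all 4 libraries, H3K27ac was present in all 4 at 35 (32.7%), in some at 46 and in none at 26 (24.3%). Of the 9405 such promoters over all genes, 53.7% had H3K27ac in all 4 libraries and 11.2% in none. H3K4me2 accompanied H3K4me3 in all 4 libraries at 90 of the 107 (84.1%), against 98.7% of the promoters of all genes. The ZNF genes on other chromosomes lay between these for H3K4me2, which was present in all 4 libraries at 171 of their 183 promoters with H3K4me3 (93.4%) and in none at 2. Their H3K27ac was present in all 4 libraries at 48.1% and in none at 10.4%. The number without any H3K4me2 was 3 of the 107 (ZNF675, ZNF714 and ZNF761), against 12 of the 9405. Conversely, of the 120 without H3K4me3, 114 had no H3K4me2 in any library (95.0%, against 75.2% over all genes), and 4 had it in all 4 libraries: ZNF846, ZNF491, ZNF20 and ZNF444. ZNF444 was also the only gene of the 120 with H3K27ac in all 4 libraries. These shares compare genes, not samples, and no test was made on them.

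Peak coverage by H3K4me3 around the TSS of the zinc finger genes reached a maximum of 44.1% to 46.3% of genes in the 4 libraries, 150 bp downstream of the TSS. For other protein-coding genes the maximum was 41.2% to 43.0%, at 250 bp. The stretch of bins above 50% of that maximum spanned 700 to 800 bp in zinc finger genes and 1500 to 1600 bp in the others. For H3K4me2 these spans were 1700 to 2000 bp and 2600 to 3100 bp, and for H3K27ac 700 to 900 bp and 1300 to 1500 bp. The H3K4me3 peaks within 2 kb of a zinc finger TSS had median widths of 794 to 891 bp, against 1168 to 1247 bp at all protein-coding genes, and the median rank of their scores within a list was 42.0% to 44.3%, against 54.5% to 55.2% for all genes. In ZNF genes on other chromosomes the widths were 1068 to 1198 bp and the ranks 43.5% to 50.5%.

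**Figure D1:**
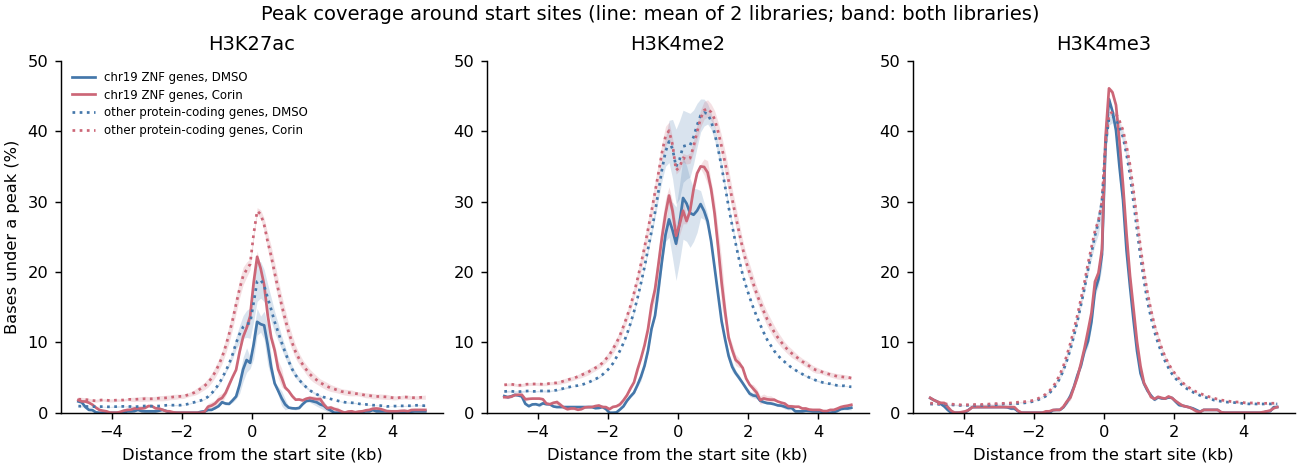
Share of bases under a peak (%, vertical axis) by distance from the start site in kb (horizontal axis, downstream positive), for the 249 chromosome 19 zinc finger genes (solid) and all other protein-coding genes (dotted), with DMSO in blue and Corin in red. Lines are means of 2 libraries and bands span both. The zinc finger curves are narrower for each mark, and the H3K4me3 curves of DMSO and Corin nearly coincide.

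The finger-encoding end of these genes carried almost no peaks. The last exon, which holds the finger array in most of these genes, had a median length of 3338 bp. It lay more than 2 kb from the TSS, taken as the gene start and not the canonical start, in 247 of the 249. Among these, ZNF628, ZNF580, ZNF581 and ZNF324 were the only genes with any bp under a peak of any mark in any of the 12 libraries. ZNF580 encodes a small protein with 3 finger patterns, and its last exon had 974 bp of H3K4me2 and of H3K4me3 in every library. The canonical start of ZNF580 lies 5986 bp downstream of the gene start used here. Its last exon is therefore closer to that start, and these peaks cannot be read as lying away from a promoter. By library the share of last exons touched by H3K4me2 was 1.21% to 1.62%, against 4.36% to 5.91% over the 18013 genes of the genome whose last exon is that far from the TSS. For H3K4me3 it was 0.405% to 0.810%, against 1.23% to 1.42%. The median length of these exons was 3371 bp in the zinc finger genes and 1449 bp over all genes, so the shares refer to exons of unequal length. Of the 105 whose promoter had H3K4me3 in all 4 libraries, 2.86% to 3.81% were touched by H3K4me2, against 4.89% to 6.28% over all genes with such promoters. For H3K4me3 the shares of these were 0.952% to 1.90%, against 1.36% to 1.65%, so the ranges overlapped. In ZNF genes on other chromosomes 3.09% to 3.86% of last exons were touched by H3K4me2 and 0.386% to 1.16% by H3K4me3.

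Neighbouring members less than 500 kb apart formed 10 clusters of at least 5 genes, which together held 235 of the 249. The clusters differed in how many promoters were marked. Cluster 1, at chr19:2819868-2944971, runs from ZNF554 to ZNF77, and all 5 of its genes had H3K4me3 and H3K4me2 in all 4 libraries, while H3K27ac was in all 4 at 0 of them and in none at 2. Cluster 10, at chr19:57191500-58481230 from ZNF264 to ZNF446, had H3K4me3 in all 4 libraries at 23 of 43 promoters and in none at 13. Cluster 8, at chr19:51571283-53580269 from ZNF175 to ZNF331, had it in all 4 at 11 of 40 and in none at 24, and H3K27ac was absent from 34 of its 40 promoters. Cluster 6, at chr19:36182276-37817300 from ZNF565 to ZNF573, had H3K4me3 in all 4 at 10 of 26 promoters and H3K27ac in all 4 at none of them. The 14 genes outside the clusters had H3K4me3 in all 4 at 9 and H3K27ac in all 4 at 7.

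Cluster 4 had the lowest share of promoters with H3K4me3 and with H3K4me2 in all 4 libraries. It spans 4.46 Mb at chr19:19668796-24129968, from ZNF101 to ZNF254, and holds 37 members and 3 other protein-coding genes. H3K4me3 was present in all 4 libraries at 8 of its promoters (21.6%) and absent at 27, while H3K4me2 was present in all 4 at 1 (2.70%) and absent at 30. That 1 gene was ZNF430. Mean H3K4me2 coverage within 10 kb was 213 and 164 bp in the Corin libraries and 122 and 144 bp in the DMSO libraries, against 872 to 1176 bp in the other members. Mean H3K4me3 coverage was 245 and 239 bp in the Corin libraries and 220 and 243 bp in the DMSO libraries, and 627 to 701 bp in the other members. Of the 17 members with H3K4me3 in all 4 libraries and H3K4me2 in fewer, 7 lay in cluster 4. They were ZNF101, ZNF506, ZNF714, ZNF431, ZNF708, ZNF100 and ZNF675.

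Long stretches of cluster 4 held no peak at all. The union of the 12 lists left chr19:19821732-21020211 empty, 1.20 Mb with the starts of 10 members including ZNF93, and chr19:21767684-23394953, 1.63 Mb with 12 members from ZNF43 to ZNF724. Of the 10, ZNF506 had an H3K4me3 peak within 2 kb of its start in all 4 libraries, beyond the edge of the stretch. Another empty stretch, chr19:23687196-27779743, covers the end of the cluster and the centromere in 4.09 Mb and holds the starts of ZNF675, whose H3K4me3 peak lies at its edge, ZNF681, ZNF726 and ZNF254. The longest run of neighbouring members without an H3K4me3 promoter peak in any library was that of the 12 from ZNF43 to ZNF724, followed by 9 in the same cluster from ZNF253 to ZNF85, within the empty stretch of 1.20 Mb, and 8 in cluster 9 from ZNF444 to ZNF835. Promoters of cluster 4 also resembled each other most, by the runs of bases they share. Of 406 pairs among its 29 RefSeq promoters, 63.3% shared an unbroken run of at least 20 bases, against 9.06% or less within any other cluster and 0.0573% of 20929 pairs from different clusters or outside them. The median shared run in cluster 4 was 22 bases, and it was 22 between members without H3K4me3 and 20 between members with it in all 4 libraries. Whether sequence shared between copies lowered the number of reads placed there was not tested.

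**Figure D2:**
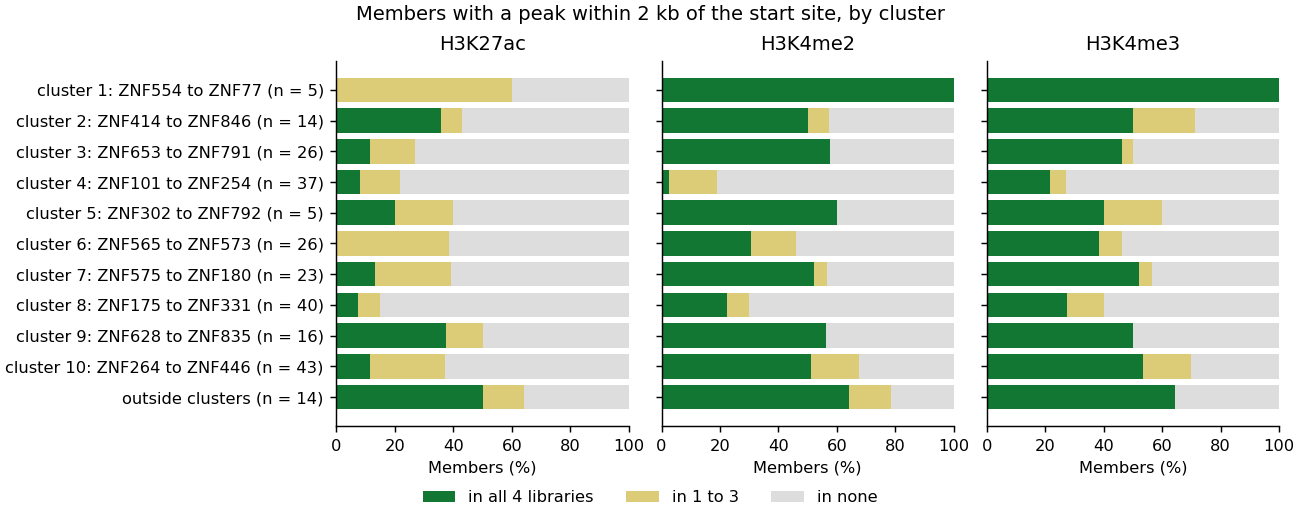
Share of members (%, horizontal axis) with a peak within 2 kb of the start site in all 4 libraries (green), in 1 to 3 (yellow) or in none (grey), for each cluster and the 14 members outside clusters (vertical axis), with 1 panel per mark. Cluster 4 has the smallest green share for H3K4me2 (2.70%) and H3K4me3 (21.6%), and cluster 1 is green throughout for both.

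The named members of these clusters show the range of states. ZNF93, a repressor of L1 and SVA retroelements, had 0 bp of every mark in all 12 libraries. ZNF331, in cluster 8, was likewise at 0 in all 12, and its canonical start lies 18618 bp from the gene start used here. ZNF91, which represses SVA elements, had 404 and 0 bp of H3K4me3 in the Corin libraries against 232 and 452 bp in DMSO, and 0 bp of the other marks. Its groups overlapped, and 1 Corin library had no peak.

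ZNF675 had 570 and 643 bp of H3K4me3 within 10 kb after Corin and 675 and 649 bp after DMSO, with 0 bp of H3K4me2 in each of the 4 libraries. Its H3K27ac was 0 in 3 libraries and 222 bp in the remaining Corin library. The H3K4me3 groups did not overlap, with Corin the lower, but the limma log2 difference was -0.09 ± 0.17 (SE, n = 2 per group, adjusted p = 0.957). ZNF808, a KRAB protein needed for pancreas development, had 589 and 549 bp of H3K4me3 in the Corin libraries against 567 and 558 bp in DMSO. H3K4me2 at ZNF808 was 797 and 1427 bp in the Corin libraries against 0 and 1521 bp in DMSO, so 1 DMSO library lacked the peak that the other 3 had.

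The first 5 members by position without an H3K4me3 peak within 2 kb in any library were ZNF358, ZNF177, ZNF560, ZNF426 and ZNF846. ZNF177, ZNF560 and ZNF426, all in cluster 2, had 0 bp of every mark in all 12 libraries even within 10 kb. ZNF358 had H3K4me2 of 2758 and 3029 bp in the Corin libraries against 2325 and 2519 bp in DMSO within 10 kb, nearly all of it outside the 2 kb window. ZNF846 had 3479 and 3619 bp of H3K4me2 in the Corin libraries against 2054 and 3099 bp in DMSO. In ZNF846, whose canonical start lies 24442 bp from the gene start, 684 to 1708 bp of this fell within 2 kb. Among the 120 members without an H3K4me3 promoter peak, 17 had H3K4me3 in the gene body in all 4 libraries and 102 had none there in any.

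Promoter sequence was compared between members with and without H3K4me3. The median number of CG in the 300 bases was 21 in the 99 members with H3K4me3 in all 4 libraries that had a sequence, and 20 in the 102 with none. Over all genes the medians were 27 and 10. The finger counts had medians of 12 and 13, and the gene lengths medians of 21.8 kb and 30.3 kb. Members whose protein matched the KRAB A box pattern had H3K4me3 in all 4 libraries in 60 of 159 (37.7%), and those without a match in 47 of 90 (52.2%). For H3K27ac these were 16 (10.1%) and 20 (22.2%). Matches differed between clusters, with 30 of 37 members in cluster 4, 33 of 40 in cluster 8 and 2 of 23 in cluster 7. Pattern match and cluster were not separated in these shares.

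The promoters were searched on both strands for 6 letter patterns. These were the GC box core GGGCGG, the ETS core CCGGAAG, the palindrome TCTCGCGA, the NRF1 type pattern GCGCATGC, the YY1 type pattern ATGGCGGC and the TATA box TATAAA. None contains another, and all but TATAAA contain a CG, so they overlap with the CG counts. CCGGAAG was in 99 of 218 zinc finger promoters (45.4%), against 14.4% of the promoters of all protein-coding genes and 10.7% of the 27305 RefSeq promoters. Its share was 47.1% in members without H3K4me3 and 42.4% in those with it in all 4 libraries, and over all genes these shares were 5.36% and 23.1%. Of the 6 promoters printed above it was in ZNF430 and ZNF675. TATAAA was in 4 of 218 (1.83%, against 9.62% of protein-coding and 12% of RefSeq promoters), ZNF675 among them. GGGCGG was in 67.9%, against 59.3% and 44.6%. The remaining 3 patterns were in 1.38% (TCTCGCGA), 4.13% (GCGCATGC) and 5.05% (ATGGCGGC), against 1.80%, 4.24% and 4.59% of protein-coding and 1.19%, 3.27% and 3.21% of RefSeq promoters.

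The comparison of Corin with DMSO asks how inhibition of LSD1 and its deacetylase partners moves these marks. Summed over the 249 genes, coverage within 10 kb was higher after Corin for each mark, and H3K27ac differed most. Mean H3K27ac coverage per member was 326 ± 22.6 bp (SD, n = 2) after Corin and 177 ± 35.2 bp (SD, n = 2) after DMSO. The log2 ratio was 0.88 ± 0.31 (SD, from both group SDs), or 1.84-fold. The same ratio over all protein-coding genes was 0.81. For H3K4me2 the means were 985 ± 68.6 and 827 ± 93.5 bp and the log2 ratio 0.25 ± 0.19, against 0.19 over all genes. For H3K4me3 they were 627 ± 7.52 and 589 ± 31.3 bp and the log2 ratio 0.09 ± 0.08, against 0.08. Both Corin libraries exceeded both DMSO libraries for each mark. The H3K27ac lists of Corin also held more peaks than those of DMSO, 30029 and 34424 against 17599 and 19995, and with the number of peaks per list matched the ratio over the members was 0.59. The H3K4me2 lists of Corin were longer too, with 41152 and 40042 peaks against 30896 and 32299, and the matched ratio was 0.11. For H3K4me3 it was 0.08. With 2 libraries against 2 an exact permutation test cannot go below p = 0.333, and no p is given for a sum over genes chosen with results of these data known.

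**Figure D3:**
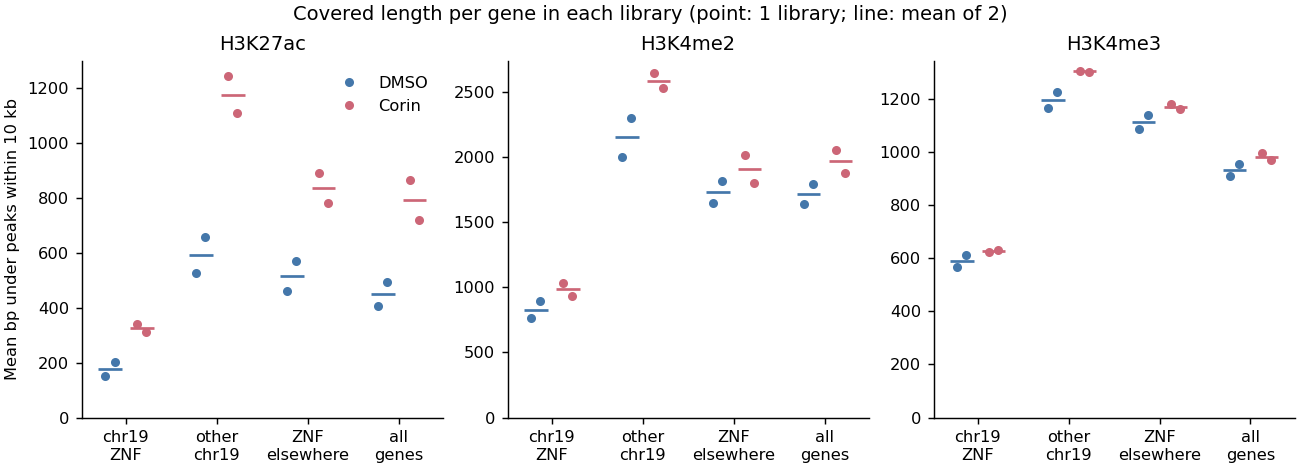
Mean bp under peaks within 10 kb of the start site per gene (vertical axis, from 0) in each library, for the chromosome 19 zinc finger genes, the other genes of the chromosome, ZNF genes elsewhere and all protein-coding genes (horizontal axis). Points are libraries, lines the means of 2, DMSO blue and Corin red. The zinc finger genes sit lowest in each panel, and their Corin and DMSO points do not overlap.

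Gene by gene, 44 members had H3K27ac coverage higher in both Corin libraries than in both DMSO libraries and 0 had it lower. Over all 20033 genes 28.7% were higher in this way and 0.344% lower, so the members' share of 17.7% was below the background. Without any H3K27ac in all 4 libraries were 156 members, which could not differ. H3K4me2 was higher in 49 members and lower in 2, against 27.8% and 2.69% of all genes, and H3K4me3 was higher in 32 and lower in 2, against 14.4% and 4.63%. Among members with H3K4me3 at the promoter in all 4 libraries, H3K27ac was higher in 39 of 107 (36.4%, against 50.6% of all genes with such a promoter), H3K4me2 in 39 (36.4%, against 37.1%) and H3K4me3 in 27 (25.2%, against 26.3%). With the number of peaks matched, 25 members were higher and 2 lower in H3K27ac, against 16.8% and 1.67% of all genes, 40 and 10 in H3K4me2, against 21.5% and 5.22%, and 29 and 2 in H3K4me3, against 13.4% and 5.07%.

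The counts were repeated in the narrower window and over the gene body. Within 2 kb, H3K27ac was higher in 34 members and lower in 0, against 21.6% and 0.304% of all genes. H3K4me2 there was higher in 40 and lower in 2, against 17.5% and 4.41%, and H3K4me3 was higher in 32 and lower in 3, against 12% and 4.76%. Over the gene body H3K27ac was higher in 40 members and lower in 0, against 28.8% and 0.514%. H3K4me2 over the body was higher in 39 and lower in 4, against 28.4% and 3.4%, and H3K4me3 was higher in 34 and lower in 5, against 13.1% and 5.07%.

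No member passed the unpaired test for any mark. limma, fitted over all genes with a mean of at least 200 bp on log2(bp + 250), gave 0 members and 0 genes (0% of those tested) at an adjusted p below 0.05, in either direction. It tested 70 members for H3K27ac, 123 for H3K4me2 and 130 for H3K4me3, leaving out 179, 126 and 119 for low coverage. At an unadjusted p below 0.05 there were 12 members higher for H3K27ac (24.5% of the 9051 genes tested were), 11 for H3K4me2 (14% of 13551) and 4 for H3K4me3 (5.84% of 10735), and 0 lower for each (0.0663%, 0.148% and 1.02% of genes). The median log2 difference of the tested members was 0.53 for H3K27ac, 0.19 for H3K4me2 and 0.06 for H3K4me3, against 0.67, 0.14 and 0.05 over all genes tested. The lowest adjusted p of a member was 0.143, 0.103 and 0.572.

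**Figure D4:**
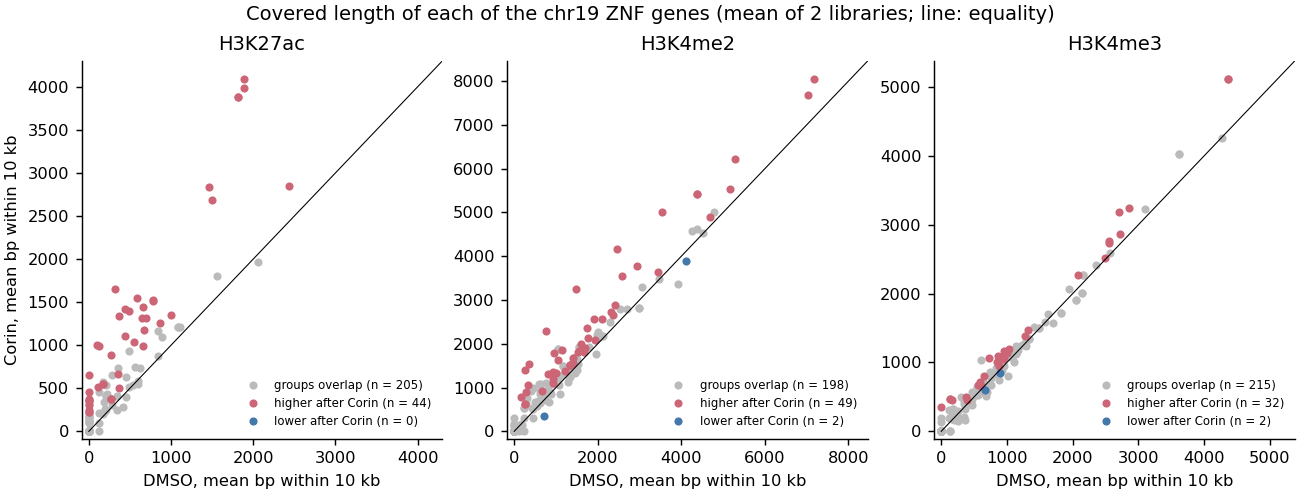
Mean bp under peaks within 10 kb after Corin (vertical axis) against DMSO (horizontal axis) for each of the 249 members, with 1 panel per mark and the line of equality. Red points had both Corin libraries above both DMSO libraries (44, 49 and 32 members), blue points the opposite (0, 2 and 2), and grey points overlapped. Red H3K27ac points lie farther from the line than those of H3K4me3.

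ZNF526, a member outside the clusters with 13 finger patterns, had the lowest adjusted p for H3K27ac. It lies at chr19:42220292-42228201. Its coverage was 1678 and 1636 bp in the Corin libraries against 333 and 305 bp in DMSO. Both Corin libraries lay above both DMSO libraries, and the limma log2 difference was 1.75 ± 0.38 (SE, n = 2 per group, adjusted p = 0.143). The difference between group means was 1338 bp, and it was 567 bp within 2 kb, with matched numbers of peaks and with the stricter score. At the same gene H3K4me2, summed over the peaks within 10 kb, was 4960 and 4829 bp in the Corin libraries against 4810 and 4543 bp in DMSO. H3K4me2 was thus present in that window in all libraries. ZNF526 was also higher in H3K4me3, which makes it 1 of 7 members with all 3 marks higher without overlap, beside ZNF101, ZNF576, ZNF428, ZNF580, ZNF581 and ZNF584 (2.81% of members, against 4.3% of all genes).

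ZNF865 had H3K27ac coverage of 4377 and 3813 bp in the Corin libraries against 1263 and 2513 bp in DMSO (log2 difference 1.08 ± 0.34, SE, limma adjusted p = 0.161). Its window overlaps that of ZNF524, so both report nearly the same peaks. ZNF580 had 4430 and 3345 bp in the Corin libraries against 1734 and 1890 bp in DMSO (0.99 ± 0.24, limma adjusted p = 0.145), and its neighbour ZNF581 had the same H3K27ac values. These genes lie in cluster 9, at chr19:55476617-56671783, where 8 of 16 members were higher in H3K27ac, 7 in H3K4me2 and 4 in H3K4me3, against 28.7%, 27.8% and 14.4% of all genes. The count in cluster 9 rests partly on shared windows.

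ZNF296, a zinc finger factor outside the clusters, had H3K27ac of 2832 and 2852 bp in the Corin libraries against 1550 and 1372 bp in DMSO (0.86 ± 0.23, limma adjusted p = 0.15). The 2 groups were each tight and did not overlap. ZNF101, at the edge of cluster 4, had 2924 and 2438 bp in the Corin libraries against 1030 and 1958 bp in DMSO (0.80 ± 0.34, limma adjusted p = 0.216). Within 2 kb of its start it had 549 and 446 bp in the Corin libraries against 507 and 302 bp in DMSO, so most of the coverage lay farther out, and within 2 kb the groups overlapped.

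Promoter H3K27ac appeared in both Corin libraries and neither DMSO library at 8 of the 107 members with H3K4me3 in all 4 libraries (7.48%, against 5.49% of all genes with such a promoter). They were ZNF555, ZNF57, ZNF260, ZNF790, ZNF345, ZNF543, ZNF8 and ZNF324B, singled out by these values and therefore a description. ZNF790 and ZNF345 share a promoter region and its peaks. In ZNF555 the coverage was 896 and 416 bp after Corin and 0 in both DMSO libraries, while H3K4me3 was 1585 and 1581 bp in the Corin libraries against 1687 and 1466 bp in DMSO. The other 7 had 199 to 623 bp of H3K27ac after Corin, and the shortest peak in any list was 188 bp. No member went the opposite way, and neither was there a member whose promoter H3K4me2 was absent in both DMSO libraries and present in both Corin libraries.

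ZNF784, in cluster 9, had the largest H3K4me2 difference in bp. The gene lies at chr19:55620741-55624566, and its 10 kb window overlaps those of ZNF580 and ZNF865. Coverage was 3340 and 3160 bp in the Corin libraries against 1598 and 1352 bp in DMSO, a limma log2 difference of 1.02 ± 0.15 (SE, n = 2 per group, adjusted p = 0.103). Its H3K4me3 was 207 and 243 bp in the Corin libraries against 242 and 239 bp in DMSO, so the H3K4me2 groups were apart while a small H3K4me3 peak stayed of similar size. ZNF627, in cluster 3, had H3K4me2 of 4301 and 4008 bp in the Corin libraries against 2141 and 2759 bp in DMSO (0.71 ± 0.15, limma adjusted p = 0.145). The gene start of ZNF627 lies 38109 bp from its canonical start. H3K27ac within 10 kb of the former was 243 bp in 1 Corin library and 0 in the other 3, and over the gene body it was 1698 and 689 bp in the Corin libraries against 631 and 404 bp in DMSO, which did not overlap.

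ZNF430 had H3K4me2 of 2747 and 1831 bp in the Corin libraries against 734 and 792 bp in DMSO (1.30 ± 0.24, limma adjusted p = 0.125). The difference of 1526 bp was 298 bp with matched numbers of peaks and with the stricter score. Its H3K27ac stayed between 452 and 524 bp in all 4 libraries. It is the gene at the end of the empty 1.20 Mb stretch of cluster 4. ZNF414, first of cluster 2, had H3K4me2 of 5365 and 4638 bp in the Corin libraries against 3905 and 3157 bp in DMSO (0.48 ± 0.14, limma adjusted p = 0.236), with H3K27ac of 1669 and 1428 bp in the Corin libraries against 372 and 803 bp in DMSO.

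ZNF274 recruits SETDB1 to the 3′ ends of zinc finger genes and is itself a member, in cluster 10. Its H3K4me2 was 1899 and 1199 bp in the Corin libraries against 515 and 202 bp in DMSO (1.59 ± 0.38, SE, limma adjusted p = 0.166). H3K27ac at ZNF274 was 1275 and 1061 bp in the Corin libraries against 1102 and 580 bp in DMSO, and these groups overlapped. H3K4me3 was 1356 and 971 bp in the Corin libraries against 957 and 941 bp in DMSO, higher after Corin by a margin small in 1 library.

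ZNF837, in cluster 10, was among the 3 members with the highest H3K4me2 and H3K4me3. Its H3K4me2 was 5856 and 6565 bp in the Corin libraries against 4921 and 5648 bp in DMSO (0.22 ± 0.11, limma adjusted p = 0.456). H3K4me3 at ZNF837 was 4011 and 4514 bp in the Corin libraries against 4036 and 4503 bp in DMSO, and H3K27ac was 1658 and 2282 bp in the Corin libraries against 1291 and 2831 bp in DMSO. The groups of the latter 2 marks overlapped, with differences between means of -7 and -91 bp.

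Only ZNF587 and ZNF628 had less H3K4me2 in both Corin libraries. ZNF587, in cluster 10, had 230 and 461 bp in the Corin libraries against 718 and 708 bp in DMSO (-0.72 ± 0.37, limma adjusted p = 0.462), and the difference of -367.5 bp was -713 bp with matched numbers of peaks. ZNF628, first of cluster 9, had 3943 and 3839 bp in the Corin libraries against 4278 and 3950 bp in DMSO (-0.07 ± 0.10, limma adjusted p = 0.818), a gap of 7 bp between the nearest libraries. Its H3K27ac went the other way, with 1927 and 748 bp in the Corin libraries against 0 and 743 bp in DMSO.

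The largest H3K4me3 differences came next. ZNF580 had 5084 and 5157 bp in the Corin libraries against 4428 and 4297 bp in DMSO (0.22 ± 0.06, limma adjusted p = 0.572). ZNF584 had 3285 and 3094 bp in the Corin libraries against 2630 and 2765 bp in DMSO (0.22 ± 0.07, limma adjusted p = 0.631), and ZNF556 had 1007 and 1113 bp in the Corin libraries against 790 and 655 bp in DMSO (0.43 ± 0.15, limma adjusted p = 0.639). ZNF101 had 3160 and 3329 bp in the Corin libraries against 2720 and 2992 bp in DMSO (0.17 ± 0.08, limma adjusted p = 0.792). The groups of these 4 genes did not overlap, and none passed the test.

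ZNF792, last of cluster 5, was the only member whose promoter H3K4me3 was absent in both DMSO libraries and present in both Corin libraries, at 345 and 347 bp. Its mean fell below the filter, so limma did not test it. H3K4me2 within 10 kb of the same start was 2428 and 2278 bp in the Corin libraries against 1457 and 2047 bp in DMSO, so the region was already marked. ZNF799, in cluster 3, had 880 and 804 bp of H3K4me3 in the Corin libraries against 892 and 894 bp in DMSO (-0.07 ± 0.13, limma adjusted p = 0.961), and with ZNF675 it was 1 of the 2 members lower in this mark.

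The differences were set beside those within 2 kb of the start. For H3K27ac, the 2207 bp between the group means of ZNF865 were 1188 bp within 2 kb, the 2075.5 bp of ZNF580 were 414.5 bp, the 1381 bp of ZNF296 were 721.5 bp and the 1187 bp of ZNF101 were 93 bp. For H3K4me2, the 1775 bp of ZNF784 were 920 bp within 2 kb, the 1704.5 bp of ZNF627 were 908.5 bp, the 1526 bp of ZNF430 were 922.5 bp and the 1470.5 bp of ZNF414 were 878 bp. ZNF274 (1190.5 bp) and ZNF587 (-367.5 bp) had the same H3K4me2 difference in both windows, and ZNF628 went from -223 to -279.5 bp. For H3K4me3, ZNF580 went from 758 to 379.5 bp, ZNF101 from 388.5 to 7 bp and ZNF584 from 492 to 443.5 bp. ZNF556 (337.5 bp), ZNF792 (346 bp), ZNF675 (-55.5 bp) and ZNF799 (-51 bp) had the same H3K4me3 difference in both.

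Some of these differences moved by over 1.5 times with 1 library left out. Leaving out each library in turn gave an H3K4me3 difference of -92 to -19 bp for ZNF675 and -89 to -13 bp for ZNF799, with both ends of each range set by leaving out a Corin library. The H3K4me2 difference of ZNF628 was -59 bp without the first DMSO library and -387 bp without the second. Without the first DMSO library of the mark, ZNF101 had a difference of 723 bp for H3K27ac and 252.5 bp for H3K4me3. The direction was the same in each case, which was fixed in advance because these members were chosen for groups that do not overlap.

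**Figure D5:**
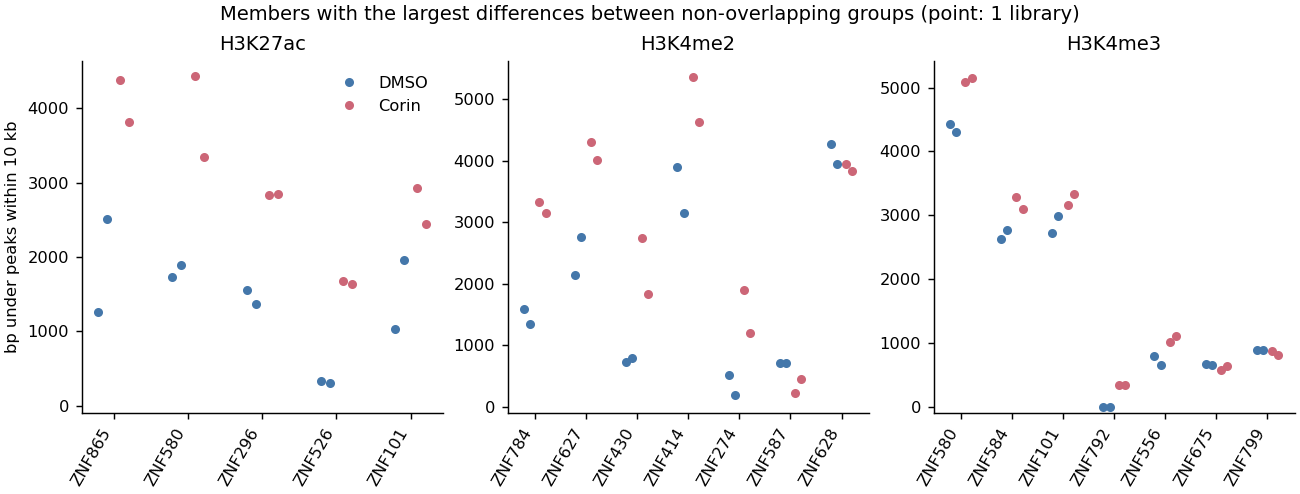
Coverage within 10 kb in bp (vertical axis) in each library for the members with the largest differences between groups that do not overlap (horizontal axis), by mark, with DMSO blue and Corin red. The largest H3K27ac difference is that of ZNF865, and the H3K27ac groups of ZNF526 do not overlap. ZNF587, ZNF628, ZNF675 and ZNF799 are the members lower after Corin.

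The partners through which KRAB proteins act were mostly marked in all libraries. Of 20 pathway genes, H3K4me2 lay within 2 kb of the TSS in all 4 libraries at 19, H3K4me3 at 18 and H3K27ac at 11. Their groups did not overlap with Corin the higher in 7 for H3K27ac, 8 for H3K4me2 and 6 for H3K4me3, and with Corin the lower in 0, 1 (PPHLN1) and 1 (TASOR). The shares higher over all genes were 28.7%, 27.8% and 14.4%, and over genes with H3K4me3 at the promoter in all 4 libraries 50.6%, 37.1% and 26.3%. None passed limma at an adjusted p below 0.05, and the lowest adjusted p over the list was 0.168, 0.225 and 0.614. SETDB1, the H3K9 methyltransferase, had 824 and 564 bp of H3K27ac in the Corin libraries against 850 and 409 bp in DMSO, which overlapped. TRIM28, the corepressor itself, lies on chromosome 19 and was at 0 bp for every mark in all 12 libraries. No list held a peak in the last 96.7 kb of the chromosome, from 58520876 to its end, which also contains ZBTB45, CHMP2A, UBE2M and MZF1, so the value of TRIM28 says nothing about its promoter. No member has its TSS in that stretch.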

How the data were processed

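CUT&RUN peak lists of 12 MOLM-13 libraries were analysed (3 marks, Corin or DMSO, 2 libraries each). Per the submitters' processing notes, Trim Galore, Bowtie2, Picard and MACS2 were used on GRCh38/hg38, and no versions are given in the sources used here. Each list deposited by the authors gives positions and a peak score, whose definition is not given in the sources used here. It was at least 50 in each list. The lists hold 1 library each, with no counts and no read depth.

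Peaks were merged within a list, and bp were summed per gene with GENCODE release 44 (python 3.11.15, numpy 2.4.6, pandas 2.3.3, matplotlib 3.10.9). A promoter counted as marked with at least 1 bp within 2 kb of the TSS. limma 3.58.1 in R 4.3.3 (lmFit, eBayes with trend) compared 2 with 2 libraries per mark on log2(bp + 250) within 10 kb, for genes with a mean of at least 200 bp, with Benjamini-Hochberg adjustment over all genes tested. The script was tested on simulated data.

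The genes and lists were chosen with earlier results of these data known. Named members were ZNF91, ZNF93, ZNF274, ZNF331, ZNF675 and ZNF808, per mark the 5 largest differences in each direction among groups that do not overlap (1 gene of overlapping windows), the 3 highest, and the first 5 by position without H3K4me3. Other genes named were chosen after their values were seen. Alternatives were the 2 kb window, the gene body, a matched number of peaks, scores of at least 100, pseudocounts of 1000 bp, no filter, median centring, each library left out, a replicate block and, for promoters, a minimum of 500 bp. The canonical TSS was added after seeing the data.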

Additional observations from a re-analysis of the deposited data

How the results depend on the processing

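The 3 summed ratios stayed above 0 in both other windows, with matched peaks and with the stricter score. They did so too with each library left out and within libraries of the same number (replicate block). These latter outcomes were fixed in advance, since both Corin libraries exceeded both DMSO libraries. The ratios were not computed under the other alternatives. The stricter score moved the H3K27ac ratio to 1.30. Leaving out 1 library gave ratios of 0.69 to 1.10 for H3K27ac, 0.14 to 0.37 for H3K4me2 and 0.04 to 0.15 for H3K4me3. limma counts were 0 members in both directions for each mark, with these exceptions. The replicate block called 4 members for H3K27ac (ZNF526, ZNF865, ZNF580 and ZNF581) and 5 for H3K4me2 (ZNF699, ZNF627, ZNF430, ZNF784 and ZNF274), all higher, and 0 for H3K4me3. These are 5.71% and 4.07% of the members tested, against 7.65% and 4.89% of all genes tested. Libraries of the same number deviated together (correlations 0.315, 0.268 and 0.250), but with 2 pairs and labels that do not say what a number shares, the number was not taken to pair the samples. With no filter 1 member was called for H3K4me3 (ZNF792, higher, among 12 genes higher and 3 lower of all tested), and leaving out 1 library gave 0 to 1 for H3K27ac (ZNF555, without the second Corin library, among 381 genes) and 0 for the others, where limma assumes that the lone library of a group varies like the other group. The count of promoters with H3K27ac in all 4 libraries fell by more than 1.5 times, from 36 to 16, with a minimum of 500 bp and to 16 with the stricter score. Members with lower H3K4me2 after Corin and groups that did not overlap numbered 2, against 10 with matched peaks, 4 over the gene body and 4 with the stricter score. Over all genes the shares were 2.69%, 5.22% and 3.4% in the first 3 settings. For H3K4me3 they numbered 2, against 5 over the gene body (4.63% and 5.07% of all genes). For H3K27ac they numbered 0, against 2 with matched peaks (0.344% and 1.67%). The replicate block instead counted members with Corin lower in both comparisons of same-numbered libraries, whose groups may overlap. These were 5 for H3K4me2, 12 for H3K4me3 and 1 for H3K27ac. No share over all genes was computed for these counts with the stricter score or in the replicate block. The H3K4me3 difference of ZNF101 was -3.5 bp over the gene body. Marks absent from a list may lie below its threshold, which depth sets and which is unknown here.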
